A study of Mus musculus with 10 samples.

Results

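The 10 genes described here, Prss34, Mcpt8, Cpa3, Ms4a2, Fcer1a, Hdc, Prg2, Prg3, Epx and Gzmb, encode granule and receptor proteins of basophils, mast cells and eosinophils. They were taken by name from a table of 51456 gene IDs, all 10 were found, and each reached 1 FPKM (fragments mapped to a gene, scaled by its length and by the mapped total) in all 5 LSC-labelled and in 2 to 5 of the HSC-labelled libraries. The series holds RNA-seq of sorted cells from mouse bone marrow, with 5 libraries in each of 2 groups. The HSC label names haematopoietic stem cells of wild-type C57BL/6J mice, gated as lineage-negative, Sca-1-positive, c-Kit-positive, CD150-positive and CD48-negative. The LSC label names leukaemia stem cells of mice whose acute myeloid leukaemia was driven by MLL-AF9, gated as lineage-negative, Sca-1-negative, c-Kit-positive, CD16/32-positive and CD34-positive. The genotype field reads wild-type for both groups, and the labels give no age, no treatment, no makeup of the lineage stain and no statement that libraries came from separate mice, so a p-value here covers the spread among libraries, which may be technical.

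Basophils, mast cells and eosinophils are granulocytes of allergy and of the defence against parasites. Basophils and eosinophils arise in the bone marrow from myeloid progenitors under GATA factors and the cytokines IL-3 and IL-5. Like mast cells, they fill their granules while they mature, and the contents of such granules include proteases, histamine and toxic basic proteins. Basophils and mast cells carry the high-affinity IgE receptor, whose crosslinking empties the granules. In the mouse, Mcpt8 and Prss34 are proteases known from basophils, Cpa3 is a carboxypeptidase of mast cells that basophils also make, and Prg2, Prg3 and Epx encode cationic proteins of eosinophil granules.

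RNA of 2 of the sorted surface proteins, Sca-1 and CD150, ran against the gates. Ly6a, the gene for Sca-1, averaged 0.920 ± 0.917 FPKM in HSC-labelled libraries and 74.2 ± 24.8 in LSC-labelled ones (SD, n = 5 each), and Slamf1, for CD150, at 0.494 and 2.85 FPKM. Cd34 (27.7 and 91.3 FPKM), named for the LSC gate, was higher in the LSC-labelled libraries, and so was Kit (21.5 and 61.6), which both gates require. Directions below are therefore between libraries as labelled, and disease, sort gate and label cannot be told apart. HSC-labelled replicate 2 stood apart from the other 4 of its group in the listed erythroid genes other than the globins. Car1, a carbonic anhydrase of red cell precursors, stood there at 1046 FPKM against 9.9996 to 26.2. The globin genes were highest in HSC-labelled replicate 3 (Hba-a1 at 159 FPKM, and 70.8 in replicate 2). Replicate 2 also had the highest sum of neutrophil genes in its group (3353 FPKM), with replicate 1 next (2273). LSC-labelled replicates 3 and 4 were highest in neutrophil genes. Steps in the low values put the depth at about 13160000 to 34980000 fragments per library, so that the lowest value of a member, 0.151 FPKM of Gzmb, rested on about 6 fragments.

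The basophil protease genes carried the largest differences. Prss34 (ENSMUSG00000056399) spans 25298394 to 25300165 of chromosome 17 (plus strand), in the tryptase gene cluster, and Mcpt8 (ENSMUSG00000022157) 56082166 to 56085273 of chromosome 14 (minus strand), in the chymase and granzyme cluster (GRCm38/mm10, GENCODE M21, as for all positions here). The promoters printed next belong to Prss34, Ms4a2 and Fcer1a, called higher in the LSC-labelled libraries, and to Cpa3. Gata1 and Gata2, the genes for factors that bind GATA sequences, were higher in the same libraries, and a link was not tested. The promoter of Mcpt8 holds none of the words marked below and is not printed. Those printed were picked among the promoters that hold one. Each runs from 250 bases before to 50 after the RefSeq start of the gene (GRCm38.p6), 5′ to 3′ on the gene's strand, at chr17:25298144-25298443 (plus) for Prss34, chr19:11623670-11623969 (minus) for Ms4a2, chr1:173227180-173227479 (minus) for Fcer1a and chr3:20242132-20242431 (minus) for Cpa3. Capitals mark any of 4 GATA words on either strand. The words are AGATAA or AGATAG with a first A, and TGATAA or TGATAG with a first T. Read on the other strand they appear as TTATCT in Ms4a2 and Fcer1a.
Prss34: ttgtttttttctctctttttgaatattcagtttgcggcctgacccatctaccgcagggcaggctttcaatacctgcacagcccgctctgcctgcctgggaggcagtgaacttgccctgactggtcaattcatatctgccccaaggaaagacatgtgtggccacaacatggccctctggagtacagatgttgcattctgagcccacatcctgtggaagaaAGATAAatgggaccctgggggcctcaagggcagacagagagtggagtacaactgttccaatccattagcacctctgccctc
Ms4a2: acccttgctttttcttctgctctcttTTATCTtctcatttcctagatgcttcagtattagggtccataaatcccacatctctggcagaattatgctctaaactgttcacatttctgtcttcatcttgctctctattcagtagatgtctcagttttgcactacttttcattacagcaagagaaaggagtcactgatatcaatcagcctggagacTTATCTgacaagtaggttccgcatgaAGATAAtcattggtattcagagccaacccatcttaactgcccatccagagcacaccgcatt
Fcer1a: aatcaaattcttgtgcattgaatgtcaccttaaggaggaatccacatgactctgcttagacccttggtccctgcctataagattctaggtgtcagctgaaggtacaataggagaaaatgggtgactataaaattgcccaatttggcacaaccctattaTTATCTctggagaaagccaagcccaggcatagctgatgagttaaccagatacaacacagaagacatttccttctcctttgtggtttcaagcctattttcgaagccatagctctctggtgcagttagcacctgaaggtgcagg
Cpa3: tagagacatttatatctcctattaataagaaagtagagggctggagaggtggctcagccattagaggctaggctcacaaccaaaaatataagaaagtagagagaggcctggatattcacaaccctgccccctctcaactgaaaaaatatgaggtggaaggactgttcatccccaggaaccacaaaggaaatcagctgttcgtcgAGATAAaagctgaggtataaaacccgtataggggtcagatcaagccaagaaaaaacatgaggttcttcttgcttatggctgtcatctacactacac

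A promoter was listed for 9 of the 10 genes, all but Prg2. Of these, 6 held at least 1 of the GATA words (Prss34, Cpa3, Ms4a2, Fcer1a, Hdc and Prg3) and 3 held none (Mcpt8, Epx and Gzmb), where 29.8% of 32851 promoters of the same length held one. In Prss34 the word began 31 bases and in Cpa3 46 bases before the start of the gene. Ms4a2 held 3 words, beginning 224, 37 and 11 bases before the start, and Fcer1a 1, beginning 92 bases before it. The word TGTGGT, which RUNX factors bind, stood on either strand in 5 of the 9 (Mcpt8, Cpa3, Fcer1a, Prg3 and Gzmb), against 16.8% of all promoters. A match describes the letters of the window and does not show that a factor binds there.

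Prss34 stood at 1.51, 0.281, 8.77, 22.9 and 20.4 FPKM in HSC-labelled replicates 1 to 5 and at 569, 381, 848, 1074 and 679 FPKM in LSC-labelled replicates 1 to 5. The lowest LSC-labelled library was far above the highest HSC-labelled one, and within the HSC-labelled group replicates 4 and 5 were high and replicate 2 low. The log2 fold change, on the scale of FPKM + 1, was 6.59 (SE 0.746, limma adjusted p = 5.309e-05), which ranked 2 among the 13431 genes tested, and 5.98 without HSC-labelled replicate 2. In FPKM the Prss34 group means of 10.8 ± 10.5 and 710 ± 265 (SD, n = 5 each) differed 65.9-fold.

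Mcpt8 stood at 11.5, 14.4, 25.03, 21.8 and 18.3 FPKM in HSC-labelled and 333, 269, 477, 519 and 359 FPKM in the LSC-labelled replicates 1 to 5. The groups lay far apart, and the HSC-labelled libraries were more even than for Prss34. Its log2 fold change was 4.36 (SE 0.226, adjusted p = 2.833e-07), from 18.2 ± 5.45 to 392 ± 104 FPKM (n = 5 each).

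Cpa3 (chromosome 3, 20215620 to 20242181, minus strand) was the member that did not pass the test. It stood at 89.5, 5.06, 3.41, 29.4 and 81.6 FPKM in the HSC-labelled and 76.1, 82.2, 103, 96.8 and 79.1 FPKM in the LSC-labelled replicates 1 to 5. HSC-labelled replicates 1 and 5 were level with the LSC-labelled libraries, replicates 2 and 3 far below them, and replicate 4 between. The log2 fold change of 1.95 (SE 0.782) had an adjusted p of 0.0675 by limma. Without HSC-labelled replicate 1 it was 2.45 (adjusted p = 0.0235) and without replicate 5 it was 2.42 (adjusted p = 0.0285), both past the threshold of 0.05.

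**Figure D1:**
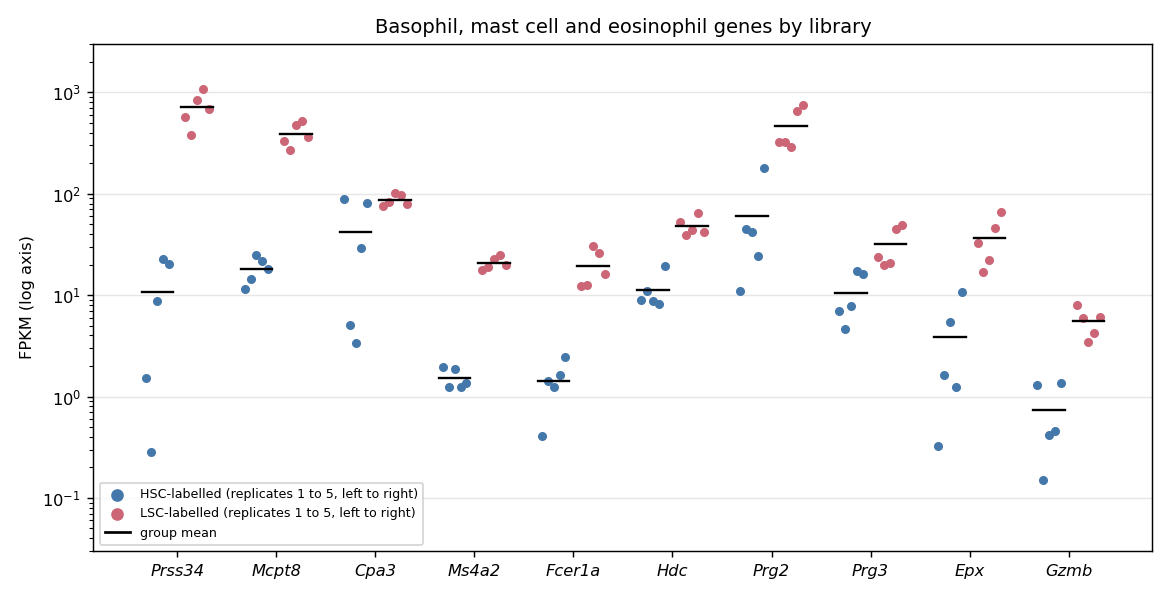
FPKM of the 10 genes on a log axis in each of the 5 HSC-labelled (blue) and 5 LSC-labelled (red) libraries, with replicates 1 to 5 from left to right and black bars for group means. The groups lie apart for 9 genes and overlap for Cpa3, whose HSC-labelled values run from 3.41 to 89.5 FPKM.

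The genes for the alpha and beta chains of the IgE receptor were higher in the LSC-labelled libraries, and that for its gamma chain was lower. Fcer1a (chromosome 1, 173221284 to 173227214, minus strand) encodes the alpha chain, which binds IgE. It stood at 0.409, 1.41, 1.25, 1.61 and 2.43 FPKM in the HSC-labelled and 12.3, 12.6, 30.8, 25.8 and 16.05 FPKM in the LSC-labelled replicates 1 to 5. The groups did not overlap, and LSC-labelled replicates 3 and 4 were the highest and replicates 1 and 2 the lowest of theirs. Its log2 fold change was 3.04 (SE 0.288, limma adjusted p = 1.584e-05).

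Ms4a2 (chromosome 19, 11615523 to 11623719, minus strand) encodes the beta chain, which amplifies the signal. It stood at 1.96, 1.23, 1.87, 1.25 and 1.37 FPKM in the HSC-labelled and 17.9, 18.9, 22.9, 24.7 and 19.9 FPKM in the LSC-labelled replicates 1 to 5, which were even within each group. Its log2 fold change was 3.11 (SE 0.123, adjusted p = 3.107e-08). With coefficients of variation of 13.8% for Ms4a2 and 42.8% for Fcer1a over the LSC-labelled libraries, the alpha chain varied more there than the beta chain.

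Fcer1g, which encodes the gamma chain that also serves the activating Fc gamma receptors, stood at 1044, 1088, 909, 1203 and 1033 FPKM in the HSC-labelled and 448, 400, 483, 386 and 339 FPKM in the LSC-labelled replicates 1 to 5. All LSC-labelled values lay below all HSC-labelled ones (log2 fold change -1.36, SE 0.114, adjusted p = 6.687e-06). In each library of both groups it was the most abundant of the 3 chains. The ratio of Ms4a2 to Fcer1g was 0.00104 to 0.00206 among HSC-labelled libraries and 0.0398 to 0.0641 among LSC-labelled ones, while that of Ms4a2 to Fcer1a overlapped between the groups.

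**Figure D2:**
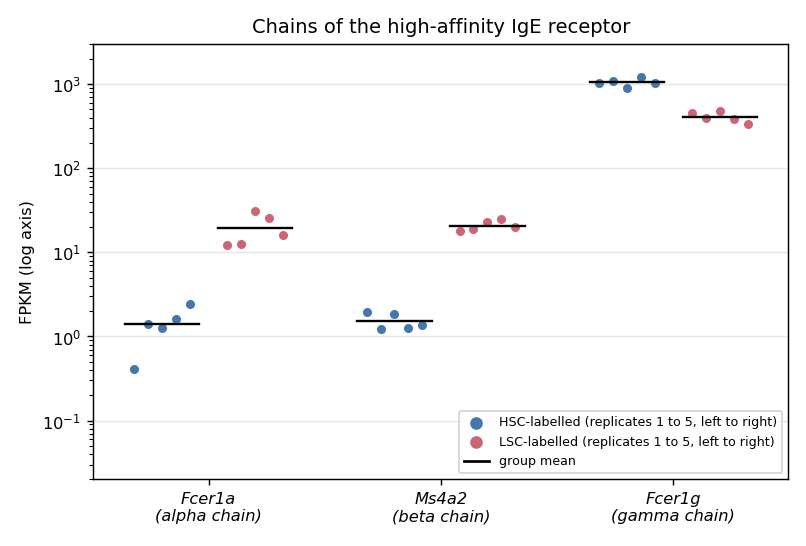
FPKM of the genes for the alpha, beta and gamma chains of the high-affinity IgE receptor on a log axis, by library (replicates 1 to 5 from left to right; black bars are group means). Fcer1a and Ms4a2 are higher and Fcer1g is lower in the LSC-labelled libraries, with no overlap between groups.

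Hdc (chromosome 2, 126593667 to 126619299, minus strand), which encodes histidine decarboxylase, the enzyme that makes histamine, was higher in the LSC-labelled libraries. It stood at 8.97, 11.0, 8.81, 8.11 and 19.4 FPKM in the HSC-labelled and 52.5, 39.2, 43.6, 64.9 and 42.0 FPKM in the LSC-labelled replicates 1 to 5. HSC-labelled replicate 5 was above the other 4, and the groups did not overlap. The log2 fold change was 2.06 (SE 0.218, limma adjusted p = 3.546e-05).

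The eosinophil granule genes were also higher in the LSC-labelled libraries, with a wide spread among the HSC-labelled ones. Prg2 encodes the major basic protein and Prg3 its homologue. They are neighbours on the plus strand of chromosome 2 (84980461 to 84983632 and 84988215 to 84993886), 4582 bases apart. Prg2 stood at 10.9, 45.1, 42.4, 24.5 and 181 FPKM in the HSC-labelled and 325, 327, 292, 651 and 749 FPKM in the LSC-labelled replicates 1 to 5. HSC-labelled replicate 5 came closest to the other group, and LSC-labelled replicates 4 and 5 were about level and highest. The log2 fold change was 3.42 (SE 0.5997, adjusted p = 0.000971).

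Prg3 stood at 6.94, 4.602, 7.86, 17.2 and 16.1 FPKM in the HSC-labelled and 23.9, 20.0, 20.6, 44.9 and 49.6 FPKM in the LSC-labelled replicates 1 to 5. The gap between the groups was narrow, from 17.2 to 20.0 FPKM, and its log2 fold change of 1.55 (SE 0.368, adjusted p = 0.00590) was the smallest of the 9 that were called. Prg2 exceeded Prg3 in each library, 1.42 to 11.2 times in the HSC-labelled and 13.6 to 16.3 times in the LSC-labelled ones. No stretch of 50 bases is shared between the annotated transcripts of Prg2 and Prg3.

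Epx (chromosome 11, 87864000 to 87875536, minus strand), which encodes eosinophil peroxidase, stood at 0.327, 1.64, 5.46, 1.23 and 10.7 FPKM in the HSC-labelled and 33.0, 16.8, 22.1, 45.7 and 66.3 FPKM in the LSC-labelled replicates 1 to 5. As for Prg2, replicate 5 was the highest of each group. Its log2 fold change was 3.24 (SE 0.562, adjusted p = 0.000912).

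Gzmb (chromosome 14, 56258838 to 56262260, minus strand) encodes granzyme B, the protease with which cytotoxic lymphocytes kill and which some mast cells make. It lies 173.6 kb from Mcpt8 in the same cluster. It stood at 1.3002, 0.151, 0.420, 0.452 and 1.36 FPKM in the HSC-labelled and 8.04, 5.89, 3.48, 4.23 and 6.11 FPKM in the LSC-labelled replicates 1 to 5, the lowest level among the 10 genes in the LSC-labelled libraries, with no overlap between groups. The log2 fold change was 1.93 (SE 0.242, limma adjusted p = 0.000105), and 3.24 with a pseudocount of 0.01 in place of 1 FPKM.

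In all, 9 of the 10 genes were called higher in the LSC-labelled libraries and 0 lower by limma, against 27.2% of the 13431 genes tested called higher, 13.8% called lower and 41.0% called either way. For the same 9 the ranges of the groups lay apart, against 20.0% of all genes not overlapping with the LSC-labelled libraries higher and 9.80% lower. A log2 fold change of at least 3 together with a call was found for 6 of them, against 0.707% of all genes. The median log2 fold change of the 10 was 3.08, beside 0.11 for all genes tested. The 10 genes were chosen with earlier results of these data known. Gzmb, at 1 FPKM in 2 HSC-labelled libraries, and Prss34, Fcer1a and Epx, in 4 each, passed the filter only with LSC-labelled libraries. An exact two-sided permutation test over the 10 libraries gave each of the 9 a p of 0.00794 and Cpa3 a p of 0.0714. The former is the smallest that 5 against 5 can give. Groups that do not overlap must give it, so it restates the separation and adds no evidence. In bulk RNA, fewer cells of a type and less RNA per cell cannot be told apart.

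The makeup of the 10-gene total also differed between groups. The 10 values summed to 84.9 to 353 FPKM among HSC-labelled libraries and 1172 to 2551 among LSC-labelled ones. Prss34, Mcpt8 and Prg2 together took 83.3% to 88.0% of that sum in the LSC-labelled libraries and 17.9% to 72.4% in the HSC-labelled ones. In HSC-labelled replicate 1 Cpa3 alone took 67.2% of it, and in replicate 2 Prg2 took 53.1%. Those 3 were the most abundant members in each LSC-labelled library.

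Relative to their level, ratios between members within a library spread less in the LSC-labelled group for the pairs given here, except Prg3 to Mcpt8. The ratio of Prss34 to Mcpt8 was 1.71, 1.42, 1.78, 2.07 and 1.89 in LSC-labelled replicates 1 to 5, and 0.132, 0.0195, 0.350, 1.05 and 1.12 in the HSC-labelled ones. The ratio of Cpa3 to Mcpt8 ran from 0.187 to 0.306 in the LSC-labelled and from 0.136 to 7.79 in the HSC-labelled libraries. Hdc to Mcpt8 was 0.0914 to 0.157 and 0.352 to 1.06, and Epx to Prg3 was 0.837 to 1.38 and 0.0471 to 0.695, in the LSC-labelled and HSC-labelled libraries respectively. Prg3 to Mcpt8 was 0.0433 to 0.138 in the LSC-labelled and 0.314 to 0.883 in the HSC-labelled libraries. Some HSC-labelled ratios rest on low values, such as Prss34 at 0.281 FPKM in replicate 2. These ratios are given as values, with no test.

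**Figure D3:**
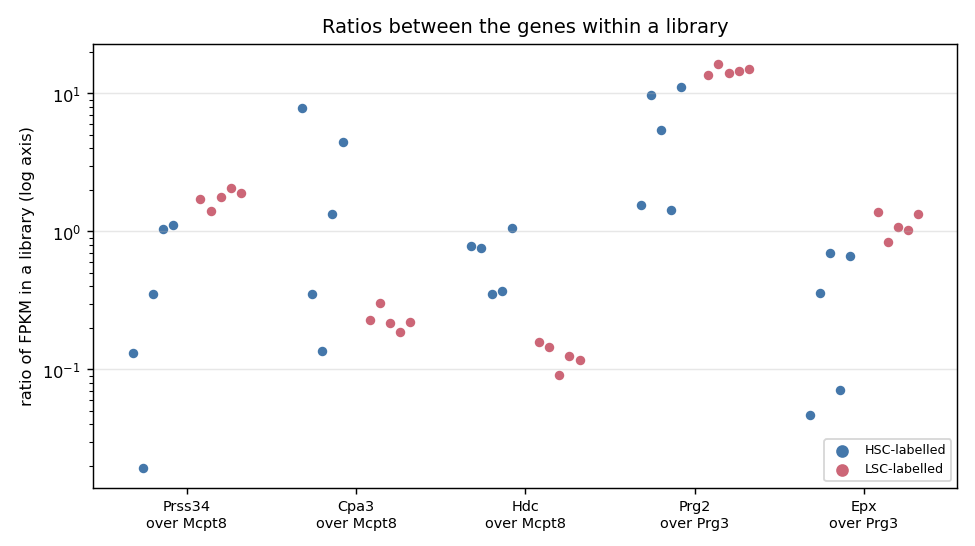
Ratios of FPKM between pairs of the genes within each library, on a log axis (blue HSC-labelled, red LSC-labelled, replicates 1 to 5 from left to right). For Prss34 over Mcpt8 the LSC-labelled libraries run from 1.42 to 2.07 and the HSC-labelled ones from 0.0195 to 1.12.

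Among the LSC-labelled libraries, the basophil protease and IgE receptor genes and the granule genes Prg2, Prg3 and Epx had their highest values in different ones. Prss34, Mcpt8, Ms4a2 and Fcer1a had their 2 highest values in replicates 3 and 4 and their lowest in replicates 1 or 2. Prg2, Prg3 and Epx had their 2 highest values in replicates 4 and 5, and replicate 3 was at or near the lowest. Of the other eosinophil markers called higher, Ear6 was also highest in replicates 4 and 5 (56.2 and 66.9 FPKM). Ear1 (58.8), Ear2 (79.6), Alox15 (13.7) and Adgre4 (13.1) were highest in replicate 3, though Ear1 and Ear2 share much sequence with other Ear genes. Il5ra, below the filter on low values, was highest in replicates 4 and 5 (1.39 and 1.25 FPKM). Some eosinophil markers thus shared the pattern of Prg2, Prg3 and Epx and others did not. The neutrophil marker genes summed to 17508 and 20108 FPKM in LSC-labelled replicates 3 and 4, above 1726 to 8512 in the other 3, and their part in the higher basophil genes of those libraries was not tested. Without LSC-labelled replicates 3 and 4 and HSC-labelled replicate 2, a choice made after seeing the data, 9 of the 10 were still called higher.

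**Figure D4:**
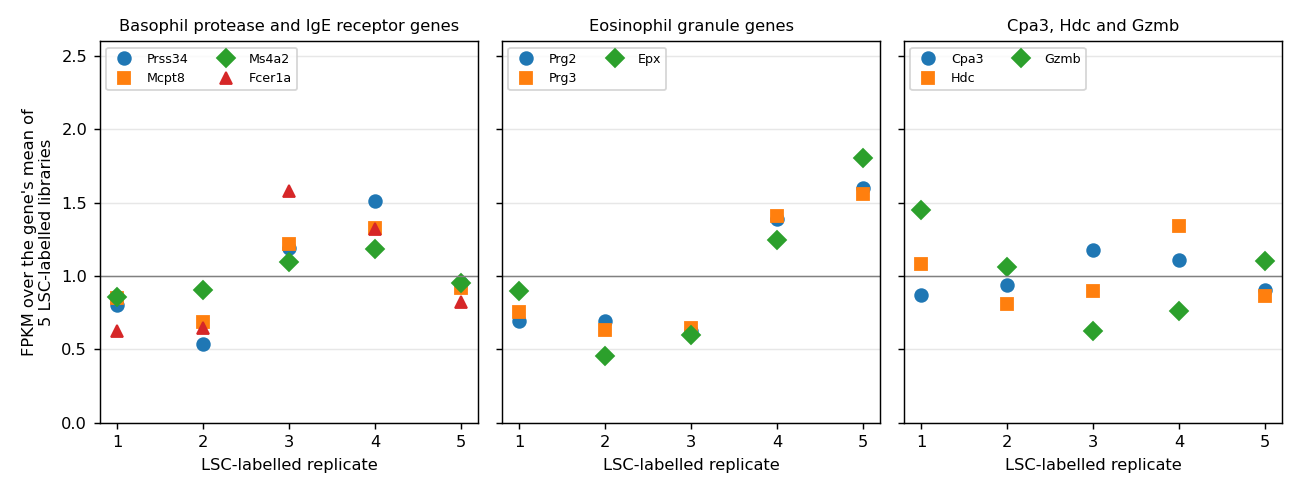
FPKM of each of the 10 genes in LSC-labelled replicates 1 to 5 divided by the gene's own mean over those 5 libraries. The 4 basophil genes peak in replicates 3 and 4 and the 3 eosinophil granule genes in replicates 4 and 5.

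Markers restricted to mature mast cells stayed near the floor of the data. None of 11 genes for mast cell chymases, tryptases and receptors (Cma1, Cma2, Mcpt1, Mcpt2, Mcpt4, Mcpt9, Tpsb2, Tpsab1, Tpsg1, Mrgprb1 and Mrgprb2) passed the filter on low values. Cma1, a chymase, reached 0.572 to 2.01 FPKM in the LSC-labelled libraries and 0 to 0.650 in HSC-labelled ones, and Tpsb2, a tryptase, reached 2.06 in LSC-labelled replicate 5 and at most 0.483 in any HSC-labelled library. The other 9 stayed at or below 0.641 FPKM in each of the 10 libraries. The mast cell list as a whole, of 16 genes, had 4 tested, of which 3 were higher, with the median at 1.68: Rab27b, which docks secretory granules (0.659 ± 0.551 to 6.33 ± 1.96 FPKM, n = 5 each), Il1rl1, the IL-33 receptor (0.917 ± 0.857 to 5.18 ± 0.856), and Kit. Outside replicate 2, Rab27b and Il1rl1 were under 1 FPKM in the HSC-labelled libraries, and both passed the filter only with the LSC-labelled ones. The count and median of this list were thus in part set by the filter. Mitf, a factor that mast cells need, stood at 1.20 and 1.02 FPKM and was not called (limma adjusted p = 0.368). The 11 chymase, tryptase and receptor genes were thus low, while Kit and Cpa3, which mast cells also express, averaged 61.6 and 87.4 FPKM in the LSC-labelled libraries. In the lists below, 2 of 12 basophil and 4 of 12 eosinophil markers did not pass the filter either.

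Other basophil markers split between directions. Of 12 listed, 10 were tested, 5 higher, 1 lower and 4 not called, with a median log2 fold change of 0.91. Of the 5, Cd200r3 was under 1 FPKM in each HSC-labelled library and could pass the filter only through the group where it was high. Il4, Cyp11a1 and Ptger3 were under 1 FPKM in most HSC-labelled libraries and also needed the LSC-labelled ones to pass. The count was thus in large part set by the filter. Cd200r3, an activating receptor of basophils and mast cells, rose from 0.427 ± 0.213 to 3.49 ± 1.94 FPKM and, like Prss34, was highest in LSC-labelled replicates 3 and 4 (4.65 and 6.34 FPKM). Il4, the cytokine that basophils release, rose from 0.862 ± 0.428 to 4.52 ± 1.37, Cyp11a1, a steroid-making enzyme, from 0.660 ± 0.755 to 4.43 ± 1.41, and Ptger3, a prostaglandin receptor, from 1.75 ± 2.62 to 6.72 ± 1.26 with overlap between groups. Ccl3, a chemokine, stood at 69.9 and 43.9 FPKM and was not called (adjusted p = 0.0925). Il3ra, the alpha chain of the IL-3 receptor, was the lower gene, from 14.8 ± 3.12 to 6.15 ± 3.39 FPKM (log2 fold change -1.25, limma adjusted p = 0.00544).

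Of 12 further eosinophil markers 8 were tested, with 5 higher, 0 lower and 3 not called, and a median of 2.09. The eosinophil-associated ribonucleases Ear1 (5.97 ± 5.48 to 42.7 ± 10.9 FPKM), Ear2 (18.02 ± 10.4 to 67.8 ± 7.91) and Ear6 (4.13 ± 3.77 to 46.2 ± 16.5) were higher, and so was Alox15, a lipoxygenase of eosinophils (0.596 ± 0.689 to 9.60 ± 2.74). Ear1 shares 57.4% and Ear2 41.5% of their 50-base stretches with other Ear genes or pseudogenes, so their separate levels are uncertain, while Ear6 shares 0.954%. Siglecf, the surface lectin used to sort eosinophils, stood at 28.4 ± 18.9 and 16.1 ± 1.53 FPKM, and Ccr3, the eotaxin receptor, at 2.48 and 4.25, neither called. Cebpe, a factor of granule formation, stood at 70.8 and 62.2 FPKM and was not called (adjusted p = 0.840). Il5ra, the receptor chain for IL-5, lay below the filter, at 0.0707 to 0.506 FPKM among HSC-labelled libraries and 0.601 to 1.39 among LSC-labelled ones. Rnase2a, also below it, went the other way without overlap, at 0.498 to 5.68 FPKM among HSC-labelled and 0 to 0.332 among LSC-labelled libraries. Rnase2b, likewise below it, ran from 0.0679 to 0.476 and from 0 to 0.121 FPKM, with overlap. Siglecf, Ccr3, Il5ra, Rnase2a, Rnase2b, Adgre4 and Il3ra were added by name after their values were seen, and Adgre4 was the fifth gene called higher.

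The list around IgE receptor signalling held genes of both directions, with more of them lower than higher. It holds Fcer1g itself, Ms4a3, of the same family as Ms4a2, Cd63 and Fcer2a besides genes downstream of the receptor. Of 21 listed, 20 were tested, 4 higher, 9 lower and 7 not called, with a median of -0.28. That is 45% lower and 20% higher, against 13.8% and 27.2% of all genes tested. Lat, the adaptor that gathers signalling enzymes, rose from 2.95 ± 2.87 to 17.2 ± 3.32 FPKM and Fyn, a Src-family kinase, from 0.539 ± 0.0811 to 2.62 ± 0.307. Fyn was under 1 FPKM in each HSC-labelled library and passed the filter only through the LSC-labelled ones. Prkcb, a protein kinase C, fell from 24.2 ± 6.53 to 5.10 ± 0.877 FPKM (log2 fold change -2.03, SE 0.165, limma adjusted p = 5.498e-06). Btk, a tyrosine kinase, stood at 56.5 and 58.8 FPKM and was not called (adjusted p = 0.586). Most of these genes serve other myeloid receptors as well.

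Factors and cytokine receptors of these lineages split. Of 22 listed, 21 were tested, 9 higher, 5 lower and 7 not called, with a median of -0.12. Gata1, the factor of erythroid, megakaryocyte, eosinophil and mast cell fates, stood at 2.93, 28.9, 1.70, 2.32 and 1.55 FPKM in the HSC-labelled and 65.2, 103, 108, 70.2 and 94.4 FPKM in the LSC-labelled replicates 1 to 5. HSC-labelled replicate 2 was high among its group, as in the erythroid genes, and the log2 fold change of 4.17 (SE 0.580, adjusted p = 0.000214) was 4.83 without it. Gata2, which basophils and mast cells need, rose from 11.3 ± 6.68 to 35.8 ± 9.85 FPKM (log2 fold change 1.86, adjusted p = 0.0114). Tal1, a partner of GATA factors, rose from 1.49 ± 2.29 to 9.98 ± 2.35 FPKM, and by 2.88 on the log2 scale in place of 2.45 without HSC-labelled replicate 2. Csf2ra, which encodes a GM-CSF receptor subunit, was lower (180 ± 22.3 and 38.1 ± 18.3 FPKM). Irf8 (133 and 108 FPKM) was not called (adjusted p = 0.290).

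Genes for granule storage and lipid mediators split between directions, with 5 of 19 tested higher, 6 lower and 8 not called (21 listed, median -0.14). That is 26.3% higher and 31.6% lower, against 27.2% and 13.8% of all genes tested. Slc18a2, the transporter that loads histamine into vesicles, rose from 6.70 ± 0.985 to 12.4 ± 1.301 FPKM, and Ltc4s, leukotriene C4 synthase, from 0.491 ± 0.134 to 1.52 ± 0.425. Ltc4s was under 1 FPKM in each HSC-labelled library and passed the filter only through the LSC-labelled ones. Ptgs1, a cyclooxygenase, fell from 43.0 ± 8.58 to 26.2 ± 4.26 FPKM, and Vamp8, of granule fusion, stood at 111 and 137 (adjusted p = 0.0941, and 0.0485 without HSC-labelled replicate 2). Without HSC-labelled replicate 2, 8 were higher.

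Neighbours of the members in the protease clusters did not share their levels. Of 13 genes of the chymase and granzyme cluster besides Mcpt8 and Gzmb, 1 passed the filter: Ctsg, cathepsin G of neutrophil granules, at 4581 ± 1165 and 3429 ± 535 FPKM, which was not called (adjusted p = 0.153) and passed the threshold without HSC-labelled replicate 2 (log2 fold change -0.57, adjusted p = 0.00855). Of 11 genes of the tryptase cluster besides Prss34, 0 passed it. Prss30 was the most abundant, at 0.587 and 1.02 FPKM.

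Marker genes of other cell types moved with the members, and their part in the results was not tested. For megakaryocytes and platelets 11 of 11 genes tested were higher (12 listed, median 2.81), the list summing to 20.03 to 277 FPKM among HSC-labelled libraries and 849 to 1415 among LSC-labelled ones, with Pf4, a platelet chemokine, the most abundant (68.1 and 678 FPKM). For erythroid cells 8 of 12 were higher and 4 not called (median 3.33, sums of 134 to 1741 and 1516 to 3105 FPKM). For neutrophils 9 of 10 were higher and 1 not called (median 2.67, sums of 596 to 3353 and 1726 to 20108), with S100a8 at 898 ± 711 and 5239 ± 3501 FPKM. For osteoblasts 6 of 9 listed genes passed the filter and were higher (median 5.67, sums of 1.34 to 3.62 and 230 to 995), led by Bglap at 0.237 and 128 FPKM, a gene with a near-identical neighbour whose reads may be split. Of the genes tested, 5 of the osteoblast and 2 of the megakaryocyte list were under 1 FPKM in each HSC-labelled library and passed the filter only through the LSC-labelled ones, so these counts were in part set by the filter. Monocyte and macrophage genes went the other way, with 0 of 10 higher, 5 lower and 5 not called (median -0.65, sums of 969 to 1898 and 771 to 1215), and Ly6c2 at 746 and 558 FPKM was not called, but was without HSC-labelled replicate 2 (adjusted p = 0.0376).

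Cytotoxic lymphocyte markers bear on Gzmb. Of 18 listed, 6 passed the filter and were higher (median 1.88). Of these, Ncr1 and Klrd1 were under 1 FPKM in each HSC-labelled library, so they could pass only through the group where they were high, and the count is no support for a direction. The list summed to 78.3 to 499 FPKM among HSC-labelled libraries and 624 to 948 among LSC-labelled ones. Nkg7, a granule membrane protein, made up most of that sum, at 212 ± 164 and 720 ± 119 FPKM. Gzma, granzyme A, stood at 1.03 ± 1.02 and 15.7 ± 9.74 FPKM. The chemokine Ccl5 stood at 4.55 ± 2.24 and 30.1 ± 8.79 FPKM, and the natural killer cell receptors Klrk1 at 1.22 and 5.44, Ncr1 at 0.445 and 3.63 and Klrd1 at 0.460 and 3.78. The 12 listed genes that did not pass the filter, among them perforin and the CD3 chains, reached at most 1.08 FPKM in an HSC-labelled and 2.87 FPKM in an LSC-labelled library. No gene of any list was at 0 in all 10 libraries. Gzmb and Gzma were both highest in LSC-labelled replicates 1 and 5, as values chosen after they were seen. Their ratio ran from 0.194 to 0.739 over the LSC-labelled libraries.

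**Figure D5:**
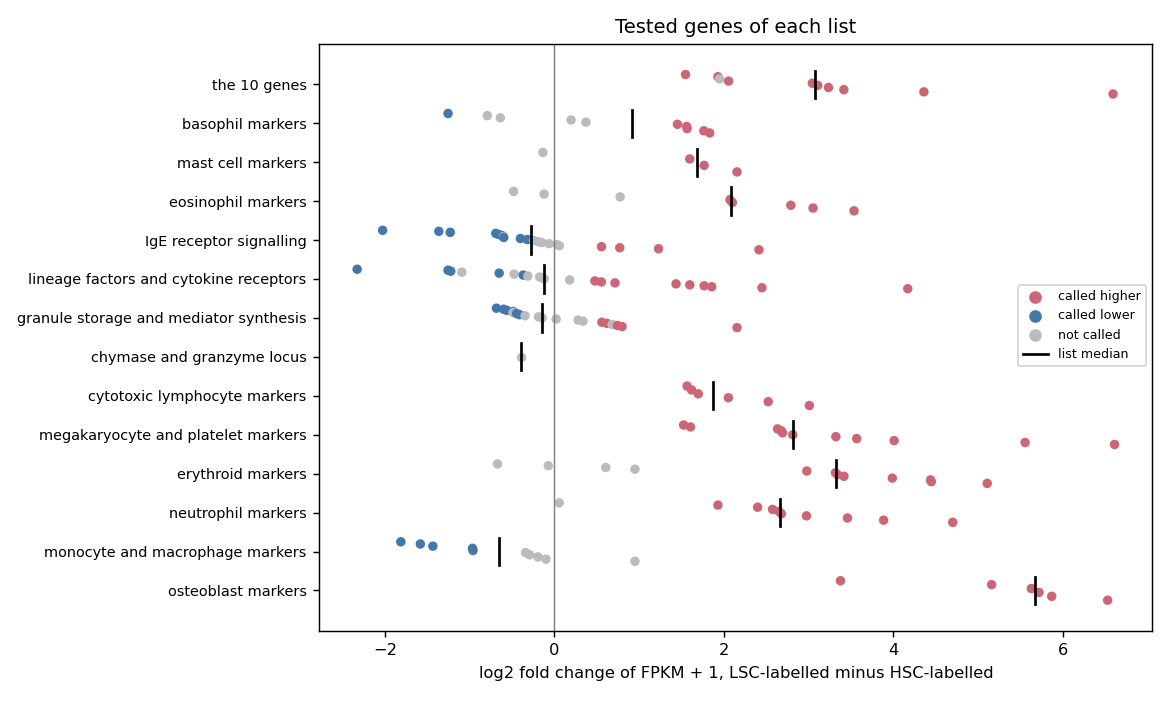
Log2 fold change of FPKM + 1, LSC-labelled minus HSC-labelled, for the tested genes of each list, coloured by the limma call (red higher, blue lower, grey not called), with black bars at list medians. The 10 genes have a median of 3.08, with megakaryocyte, erythroid, neutrophil and osteoblast markers also to the right of 0 and monocyte markers to the left.

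The genes with the profile most like that of a member over the 10 libraries were taken as those with the smallest mean absolute difference between log2 profiles, each centred on its own mean. For Prss34 they were Tubb1, a platelet tubulin (difference 1.01), Bglap (1.12) and Ly6a (1.17). For Cpa3 they were Gpr171 (0.603), Cd34 (0.643) and Nkg7 (0.667). For Prg2 they were Ear6 (0.430), H2-Q6 (0.519) and Oasl1 (0.531), and for Epx they were Ear6 (0.347), Gzma (0.387) and H2-Q6 (0.458). Among the members themselves the closest pair was Prg2 and Epx (0.360), then Hdc and Gzmb (0.395) and Ms4a2 and Fcer1a (0.410). The measure is a description over 10 libraries in 2 groups and mostly reflects the difference between them.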

How the data were processed

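RNA of sorted bone marrow cells was measured in 10 libraries. Per the labels' protocols, mRNA was amplified by Geo-seq, a method for small samples, and libraries were made with a transposase kit, so low genes can vary by amplification. The authors deposited FPKM values. Per the submitters' processing notes reads were handled on mm10, and Bowtie 0.12.9, Cufflinks 2.1.1, DESeq2 and HTSeq are listed without roles. The sources used here do not give strand or annotation. The table held 0 columns of values beyond those of the 10 libraries.

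Symbols came from GENCODE M21 (51246 of 51456 IDs matched). A gene had to reach 1 FPKM in 5 or more libraries, which 13431 did. A gene under 1 FPKM in any HSC-labelled library could thus pass only with LSC-labelled libraries at that level, and the reverse. Counts of genes called higher or lower are in part set by this filter. Values were tested as log2(FPKM + 1) by limma 3.58.1 in R 4.3.3, with group as the term, empirical Bayes moderation along a mean trend and a two-sided test. The Benjamini-Hochberg adjustment ran over those genes, with a threshold of 0.05. The fold change understates that of low genes. A positive log2 fold change means a higher LSC-labelled mean. Low values multiplied by exon length were whole within 0.05 of a fragment for 65.5% to 77.9% of values, so no count test was run. The fit was tested on simulated data.

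The 10 members and the 14 other gene lists were chosen with earlier results of these data known, 16 genes stand in at least 2 lists, and no list was tested as a set. Genes were named by a rule: all members; up to 4 called genes of largest change and the most abundant uncalled gene of each related list; the most abundant gene of each list of other cells; label checks; and 3 genes nearest in profile to Prss34, Cpa3, Prg2 and Epx. Further names are marked as chosen after their values were seen, as are Fcer1g's ratios, Cma1, Tpsb2, Ccl5, Klrk1, Ncr1, Klrd1 and Adgre4. Promoters came from RefSeq (GRCm38.p6). None of the members overlapped another gene except for microRNA genes within Mcpt8 and Cpa3, and Ms4a2 shared 2.1% of its 50-base stretches with another gene. Other steps used pandas 2.3.3 and numpy 2.4.6 in Python 3.11.15, and matplotlib 3.10.9 for plots. Alternatives were other pseudocounts, no filter, other scalings, a replicate block, no mean trend and left-out libraries.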

Additional observations from a re-analysis of the deposited data

Results flagged for a closer look

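Of the 108 groups of 5 libraries looked at (54 named genes in 2 groups), 15 held a library whose gap to the next exceeded the 95% critical value of Dixon's test (0.71 of the group's range). Chance alone flags about 1 group in 20 only where values are normally distributed and groups independent. The test ran on untransformed FPKM, and the genes share libraries, so the 15 cannot be set against that rate. Among the members, HSC-labelled replicate 5 stood out for Hdc (19.4 FPKM, the other 4 at 8.11 to 11.0) and for Prg2 (181 FPKM, the others at 10.9 to 45.1). Outside the members the same library stood out for Btk (65.7 FPKM).

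HSC-labelled replicate 2 stood out upward in 8 genes, with Ptger3 at 6.42, Rab27b at 1.62, Il1rl1 at 2.43, Lat at 8.02, Gata1 at 28.9, Tal1 at 5.57, Pf4 at 205 and Car1 at 1046 FPKM. It was the highest of its group for none of the 10 members, and the lowest for 4: Prss34 (0.281 FPKM), Ms4a2 (1.23), Prg3 (4.602) and Gzmb (0.151).

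Single values elsewhere were Cyp11a1 in HSC-labelled replicate 1 (2.003 FPKM, the replicate highest in Cpa3), Ly6a in HSC-labelled replicate 3 (2.52), Lat in LSC-labelled replicate 3 (22.9) and Slamf1 in LSC-labelled replicate 5, below the others (2.29).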

How the results depend on the processing

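The 9 members called higher were called under each of the alternatives run (2 smaller pseudocounts, no filter, 3 other scalings, no mean trend, a replicate block, each library left out, and 3 libraries left out together). The exact permutation test called them too, an outcome that groups without overlap fix in advance. Of 200 member results under alternatives, 198 kept direction and side of the threshold and 2, both Cpa3, passed it. The number of members called higher was 9 to 10 over the runs that left out 1 library. Under quantile normalization 2833 of all genes were lower in place of 1859, and calls were 49.6% higher in place of 66.3%. With median-of-ratios factors from the tested genes, added after seeing the data, they were 50.8% higher. The median of all genes was 0.11 as deposited, 0.13 with median-of-ratios scaling over all genes above 0, and -0.02 and -0.01 under these 2 scalings, shifts far smaller than the members' changes. Direction reversed only for 2 uncalled genes: Cebpe, which ran from -0.453 to 0.121 over the runs without 1 library (0.099 without LSC-labelled replicate 2 and 0.0025 without 4), and Btk under quantile normalization (-0.0707) and the added scaling (-0.0795). Counts of other lists that moved over 1.5 times were mostly of 0 to 3 genes. The larger ones were 8 in place of 5 lineage genes lower under quantile normalization, 8 in place of 5 granule storage genes higher without HSC-labelled replicate 2 and 11 in place of 6 cytotoxic genes higher with no filter, where more genes are tested. Ccl3 passed the threshold under both scalings and without the 3 libraries, Mitf under quantile normalization, and Vamp8, Ctsg and Ly6c2 without HSC-labelled replicate 2. The causes were not tested. The replicate numbers did not pair the libraries (correlations of deviations from group means of 0.107, 0.1203, -0.290, 0.225 and 0.0519 for numbers 1 to 5). With a replicate block 5155 genes were called in place of 5513 and all 9 members kept their calls. At this depth values under about 0.5 FPKM rest on few fragments.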
